A study of Fukomys damarensis and Heterocephalus glaber and Mus musculus with 160 samples.

Results

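The binding sites of the liver transcription factor HNF4A were mapped by chromatin immunoprecipitation and sequencing (ChIP-seq) in the livers of 2 naked mole-rats and 1 Damaraland mole-rat. The lists were chosen by their labels: species, liver as tissue and HNF4A as antibody. They are 3 of 160 samples in the series and hold 177011 peaks, out of 884475 peaks in the 16 liver factor lists of both species. A peak is a stretch of the genome where the immunoprecipitated DNA exceeded the input DNA.

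HNF4A is a nuclear receptor that binds DNA as a homodimer at direct repeats of a short half-site. In hepatocytes it is a central regulator of genes for lipid transport, bile acid synthesis, gluconeogenesis, blood clotting factors and detoxification. It shares many liver regulatory regions with CEBPA, a leucine zipper factor, with FOXA1, a forkhead factor that can open chromatin, and with RXRA, the common partner of many nuclear receptors. Trimethylation of histone H3 at lysine 4 (H3K4me3) marks promoters, monomethylation (H3K4me1) marks enhancers, and acetylation at lysine 27 (H3K27ac) marks the promoters and enhancers that are active. At an active regulatory region the factors usually occupy a stretch free of nucleosomes, and the marked nucleosomes lie on its flanks.

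All 3 animals were adult wild-type males without an experimental treatment. The naked mole-rats, called NMR30 and NMR35, were 13 and 15 months old, and the Damaraland mole-rat, called DMR4, had an estimated age of 48 months. Each list came from the whole liver of 1 animal, so hepatocytes and other liver cells were not separated. NMR30, NMR35 and DMR4 each also had liver lists for CEBPA, FOXA1 and RXRA, and a second Damaraland animal, DMR1, had lists for CEBPA, FOXA1, RXRA and HNF6 but none for HNF4A used here. With a single Damaraland library, values for that species have no replicate. Histone lists of the same species gave the chromatin reference: a consensus region of a mark is a stretch covered by peaks of at least 2 animals. The consensus drew on 5 animals per mark in liver, except Damaraland H3K4me3, for which 2 animals had lists. By the labels, some other naked mole-rats of these lists were older than NMR35, and some other Damaraland mole-rats younger than DMR4. DMR1 was also listed at 48 months. Read depth is unknown, since the lists hold peaks only.

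The lists held 47577 peaks in NMR30, 66444 in NMR35 and 62990 in DMR4. Many peaks had the smallest width of their list. In NMR30, 60.5% of peaks had the list's minimum width of 285 bases, in NMR35 59.3% had 289 bases, and in DMR4 42.8% had 280 bases. The median widths were 285, 289 and 314 bases, and 1 peak in 10 was wider than 496, 557 and 637 bases. Fold is the authors' enrichment of each peak over its background. Below, the order of fold is compared between lists and a cutoff of 50 is applied to several lists, both as description. No difference in fold between lists was tested. The median fold was 4.27 in NMR30, 4.63 in NMR35 and 4.85 in DMR4, and its 99th percentile was 17.9, 27.5 and 29.6. The highest fold reached 27789, 46135 and 4690, so a few peaks lay far beyond the rest of each list. Only 33.1% of NMR30 peaks had a −log10 q of at least 4, the lowest share among the 16 factor lists. NMR35 reached 43.9% and DMR4 69.5%.

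Peaks were ranked within each list by −log10 p, with rank 1 the highest. Width and fold fell together along the ranks. In NMR30 the median width was 772 bases at ranks 1 to 100, 490 bases at ranks 1001 to 2000 and 285 bases from rank 10001 on. In DMR4 it was 877, 719 and 387 bases in the first 100, at ranks 1001 to 2000 and at ranks 10001 to 20000. The minimum-width peaks were thus a feature of the lower ranks: no peak of the first 1000 had the minimum width in any of the 3 lists.

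The first comparison was between the 2 naked mole-rat livers. A peak was counted as shared when it overlapped a peak of the other list by at least 50% of the shorter of the 2. NMR35 held 6040 of the 47577 NMR30 peaks, or 12.7% (95% Wilson interval 12.4 to 13.0), and NMR30 held 5866 of the 66444 NMR35 peaks, or 8.83% (8.62 to 9.05). The intervals cover counting error only. The bases covered by both lists were 0.0739 of the bases covered by either (the Jaccard index), against 0.204 for CEBPA, 0.159 for FOXA1 and 0.171 for RXRA in the same 2 animals. By this index over whole lists HNF4A had the lowest overlap of the 4 factors, a description from 1 pair of animals per factor. At equal list length the order at the top was another. Of the top 500 NMR30 peaks of HNF4A 76.4% were among the top 500 of NMR35, against 71.4% for CEBPA, 69.4% for RXRA and 55.8% for FOXA1. For the top 1000 the shares were 69.2%, 73.6%, 66.9% and 56.6% in the same order of factors, and for the top 5000 they were 47.5%, 75.8%, 62.7% and 60.9%.

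The overlap was nearly complete among the strongest peaks and fell fast with rank. NMR35 held 99.5% of the top 1000 NMR30 peaks, 94.8% of the top 2000, 63.7% of the top 5000 and 24.6% of the top 20000. In the other direction, NMR30 held 94.5% of the top 1000 NMR35 peaks, 61.8% of the top 5000 and 24.4% of the top 20000. CEBPA behaved differently in this range: 99.8% of its top 5000 and 90.2% of its top 20000 NMR30 peaks lay in the NMR35 list. Between these were FOXA1, at 93.0% and 47.8%, and RXRA, at 93.4% and 49.8%.

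**Figure D1:**
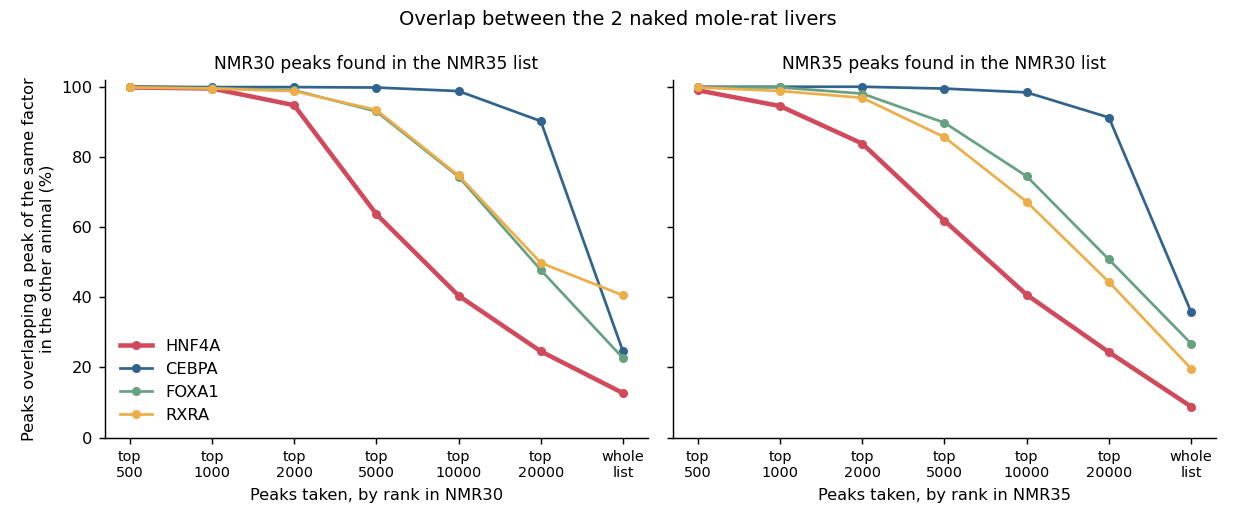
The share of naked mole-rat peaks (y axis, %) that overlapped a peak of the same factor in the other animal is plotted against the number of top-ranked peaks taken (x axis), for NMR30 peaks on the left and NMR35 peaks on the right. HNF4A (thick line) starts near 100% with the other factors and lies below the other 3 from the top 2000 on, reaching 12.7% and 8.83% for the whole lists.

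The shared regions had summits close to each other. Over the 6040 shared NMR30 peaks the median distance to the nearest NMR35 summit was 64 bases, and 65.0% lay within 100 bases. For the 995 shared peaks among the first 1000 of NMR30 the median was 29 bases. The order of fold at the shared regions was alike in part, with a Spearman correlation of 0.567 across regions and 0.717 among those first 995. The points are regions of 2 libraries and not independent replicates.

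Peaks of a single animal were narrower, of lower fold and less often in acetylated regions than shared peaks. In NMR30 the shared peaks had a median width of 409 bases and a median fold of 5.73, against 285 bases and 4.20 for the 41537 peaks found in that animal alone. Of the shared peaks 30.7% lay in a liver H3K27ac consensus region, against 2.09% of the others. For NMR35 these shares were 32.0% and 13.4%, so peaks of NMR35 alone lay in H3K27ac regions more often than those of NMR30 alone. Both animals define this split, so it carries no test.

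Other factors were present at most shared regions. Of the shared NMR30 peaks, 74.9% overlapped a CEBPA, FOXA1 or RXRA peak of the same animal, and 18.7% overlapped all 3. In NMR35 the shares were 80.4% and 19.6%. Over the whole lists, 17.2% of NMR30 and 25.6% of NMR35 peaks overlapped any of the 3, and 2.57% and 4.24% overlapped all 3. In no list of another factor in either animal lay 874 shared NMR30 peaks, or 14.5%, against 78.6% of the whole NMR30 list. Shared peaks also ranked high, with 52.7% in the top 5000 of each list. The RXRA list of NMR35 held 10.98% of all NMR30 HNF4A peaks, close to the 12.7% held by the HNF4A list of NMR35. For NMR35, the animal's own RXRA list held 18.3% of its HNF4A peaks and the HNF4A list of NMR30 held 8.83%. A peak of NMR35 HNF4A was thus found more often in the RXRA list of the same liver than in the HNF4A list of the other liver. The CEBPA and FOXA1 lists of the other liver, NMR30, also held more of these peaks, at 13.3% and 10.97%. The RXRA list of NMR30 held 8.81%. These NMR30 lists had 122941, 51630 and 26218 peaks, against 47577 for HNF4A. The part of list length in these shares was not tested.

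The leading regions ranked high in both naked mole-rats. By the rule of the best worse rank in both lists, the leading region was JH170919.1:28676-29129 on a scaffold of the HetGla_1.0 assembly, with rank 1 in both animals and a fold of 27789 in NMR30 and 46135 in NMR35. It was also rank 1 in all 6 CEBPA, FOXA1 and RXRA lists of these animals, and a peak of 1 of 5 liver and 2 of 3 heart H3K27ac lists touched it. The region at JH172194.1:216153-216591 had rank 2 in both HNF4A lists and in the same 6 lists, with a peak in all 5 liver H3K4me3, all 5 liver H3K27ac and all 3 heart H3K27ac lists. At JH204773.1:222295-224027, rank 4 in both, all 5 animals had liver H3K4me3, H3K27ac and H3K4me1 peaks, while no heart H3K27ac list had one. This last region combined strong HNF4A signal with liver marks and no heart acetylation. FOXA1 and RXRA also had rank 4 there in both animals, and CEBPA had ranks 8 in NMR30 and 91 in NMR35. A peak of 1 of 3 heart H3K4me1 lists touched it. Of the 10 leading regions, JH169768.1:2321-2808, JH169768.1:10-784 and JH169618.1:17963-18605 had no histone peak in any liver list. Both JH169768.1 regions lay on a scaffold on which no peak of any list ended beyond base 4855. The first of them was also the highest-ranked HNF4A peak of each naked mole-rat without any histone peak of either tissue. No annotation of this assembly was used here, so genes at these regions are not given.

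Regions with the highest HNF4A folds were also peaks of other factors. All 98 NMR30 and all 239 NMR35 HNF4A peaks with a fold of at least 50 were in the list of the other animal. All of them were also in the RXRA list of the same animal, as were all 185 such peaks of DMR4. Overlap with all 3 other factors was found for 96 of 98, 162 of 239 and 90 of 185. Across the 98 NMR30 regions the fold of HNF4A followed that of RXRA with a Spearman correlation of 0.961 and that of FOXA1 with 0.930. The correlation with RXRA was 0.877 in NMR35 and 0.442 in DMR4, and that with CEBPA was 0.799, 0.473 and 0.488 in NMR30, NMR35 and DMR4. These regions were chosen by HNF4A fold, so lower numbers at a fold of 50 in other lists follow from the choice. In RXRA 47 of 98, 138 of 239 and 74 of 185 reached a fold of 50. In FOXA1 88, 61 and 43 did, and in CEBPA 9, 8 and 36. Over whole lists, peaks at that fold numbered 48, 183 and 543 in RXRA of NMR30, NMR35 and DMR4. FOXA1 had 162, 376 and 111, and CEBPA had 874, 442 and 1719. The source of the high folds was not tested.

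In DMR4 the leading regions lay on very short scaffolds of the DMR_v1.0 assembly. The first was KN124264.1:3064-4431, with a fold of 295, on a scaffold that peaks covered up to base 4431. The second was KN121233.1:8129-9200, with a fold of 201, and it was the highest-ranked DMR4 peak without any histone peak in either tissue. The highest fold of the list, 4690, was at KN125078.1:570-1917, rank 4. None of the 10 leading regions had a liver histone peak in any animal, and all 10 were also touched by peaks of all 7 other factor lists of DMR4 and DMR1. KN124264.1:3064-4431 was rank 1 in each of those 7 lists. Scaffolds on which no peak ended beyond 1 Mb held 83.0% of the first 100 DMR4 peaks but 9.63% of the whole list. In NMR30 and NMR35 such scaffolds held 45.0% and 51.0% of the first 100 and 30.8% and 30.9% of the whole lists.

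The next question was where HNF4A peaks lay relative to histone marks of the liver. Over the whole lists, 5.72% of NMR30 peaks (95% Wilson interval 5.51 to 5.93), 15.0% of NMR35 peaks (14.8 to 15.3) and 29.4% of DMR4 peaks (29.0 to 29.8) lay in liver H3K27ac consensus regions. The naked mole-rat mean was 10.4% ± 6.58 (SD, n = 2), so the 2 animals differed widely. For H3K4me1 the shares were 5.55%, 14.6% and 27.7%, and for H3K4me3 3.04%, 7.33% and 8.98%. The consensus regions covered 2.67% of the scaffold length reached by peaks for H3K27ac in the naked mole-rat, 4.58% for H3K4me1 and 1.02% for H3K4me3, and 3.69%, 6.25% and 0.763% in the Damaraland mole-rat.

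The share rose strongly toward the top of the lists. Among the first 1000 peaks, 38.7% of NMR30 (35.7 to 41.8), 46.8% of NMR35 (43.7 to 49.9) and 64% of DMR4 (61.0 to 66.9) lay in liver H3K27ac. At ranks 40001 to the end the shares were 2.36%, 6.32% and 12.7%. The 3 libraries differed in the shape between these ends. NMR30 fell at every step, from 58.0% at ranks 1 to 100 to 27.1% at ranks 1001 to 2000 and 7.64% at ranks 5001 to 10000. NMR35 kept a plateau between 44.1% and 49.9% from rank 101 to rank 5000, and had 34.2% at ranks 5001 to 10000. DMR4 began with 15.0% at ranks 1 to 100, rose to 74.2% at ranks 1001 to 2000 and still had 64.2% at ranks 5001 to 10000. The low start of DMR4 went with its short scaffolds. On scaffolds reaching 1 Mb, 83.7% of the first 1000 DMR4 peaks lay in liver H3K27ac, and on shorter scaffolds 19.8% did. NMR30 and NMR35 showed a smaller gap, at 41.3% against 34.9% and 48.9% against 43.4%.

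**Figure D2:**
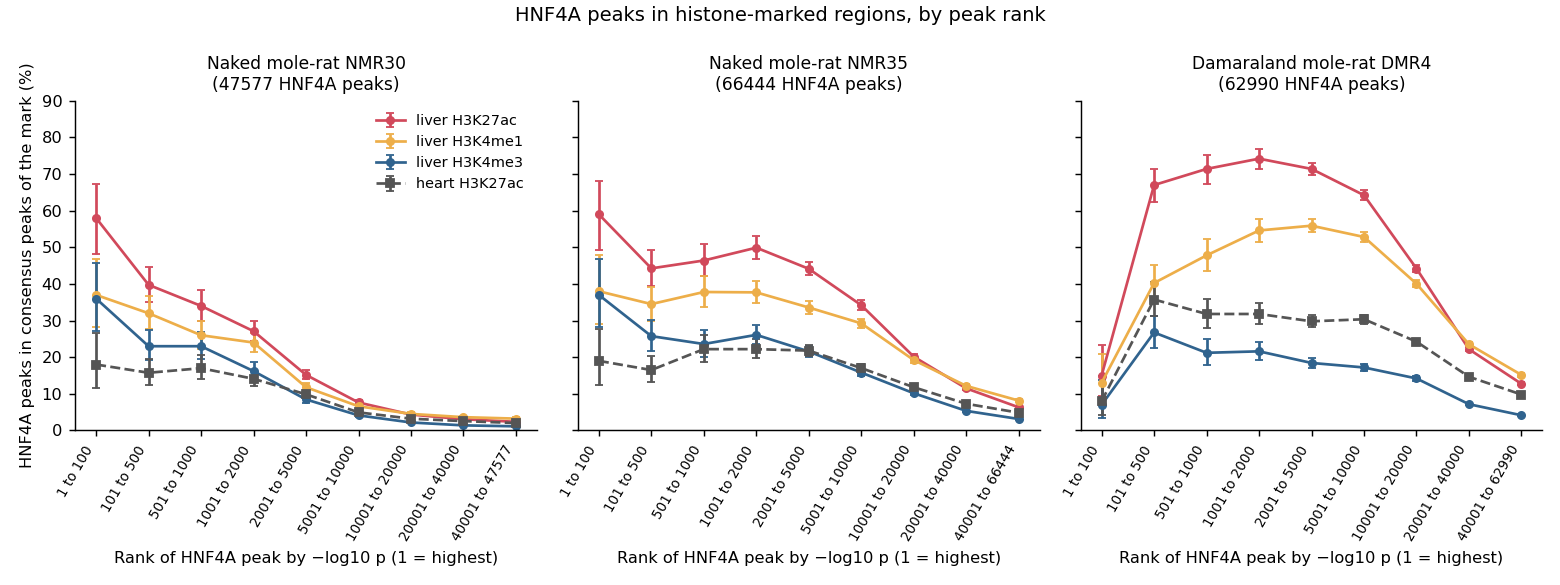
The share of HNF4A peaks in consensus regions (y axis, %) is plotted by rank class (x axis) for NMR30, NMR35 and DMR4, with liver marks as solid lines, heart H3K27ac as a dashed line and 95% Wilson intervals as bars. NMR30 falls from 58.0% in liver H3K27ac, NMR35 stays between 44.1% and 49.9% from rank 101 to 5000, and DMR4 rises from 15.0% to 74.2% before it falls.

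Heart consensus regions of the same species served as the background and as a check of the tissue label. Heart H3K27ac held 3.86% of NMR30, 8.80% of NMR35 and 16.9% of DMR4 HNF4A peaks. Liver H3K27ac therefore held 1.48, 1.71 and 1.74 times as many. Among the first 1000 peaks the ratios were 2.33, 2.39 and 2.06, and at ranks 40001 to the end 1.16, 1.30 and 1.30. In all 3 libraries the liver H3K27ac share was above the heart H3K27ac share in every rank class. The ratio was highest at ranks 1 to 100 in NMR30 (3.22) and NMR35 (3.11). In DMR4 it was 1.88 there and highest at ranks 2001 to 5000 (2.40). For H3K4me1, 29.5%, 36.5% and 41.3% of the first 1000 peaks were in the liver consensus and 6.10%, 9.30% and 27.5% in the heart consensus. The heart H3K4me1 consensus of the naked mole-rat drew on 3 animals and covered 1.01% of the reached length, against 4.58% for liver. Heart H3K27ac covered 2.40% in the naked mole-rat and 3.58% in the Damaraland mole-rat, against 2.67% and 3.69% for liver. For H3K4me3, 24.3%, 25.8% and 22.0% of the first 1000 peaks were in the liver consensus and 15.0%, 13.4% and 11.7% in the heart consensus. Over whole lists liver H3K4me3 was higher in NMR30 (3.04% against 2.21%) and NMR35 (7.33% against 5.28%). In DMR4 heart was slightly higher, at 9.13% against 8.98%. Heart H3K4me3 covered 0.803% of the reached length in the naked mole-rat and 1.13% in the Damaraland mole-rat, against 1.02% and 0.763% for liver. The Damaraland liver H3K4me3 consensus needed both of its 2 animals, and that of heart any 2 of 5.

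Each peak was also placed in 1 chromatin state. Promoters had H3K27ac and H3K4me3, active enhancers had H3K27ac and H3K4me1 without H3K4me3, and primed enhancers had H3K4me1 alone. At ranks 1001 to 2000, NMR30 had 14.9% of its peaks in promoters, 9.20% in active enhancers and 61.1% in no marked region. NMR35 had 24.1%, 18.9% and 38.4%, and DMR4 had 21.5%, 38.5% and 18.5%. At these ranks promoters led in both naked mole-rats and active enhancers led in DMR4. The whole lists had the same order, at 2.68% against 2.03% in NMR30, 6.49% against 6.22% in NMR35 and 8.56% against 15.2% in DMR4. Single rank classes differed: in DMR4 at ranks 101 to 500, promoters had 26.5% and active enhancers 25.8%. At ranks 20001 to 40000 active enhancers led in NMR30 (1.255% against 1.15%) and NMR35 (5.16% against 4.585%). The Damaraland promoter state rests on H3K4me3 lists of 2 animals. At ranks 20001 to 40000 no mark was found at 94.7%, 82.4% and 67.7% of the peaks. The consensus needs 2 animals, and a looser measure counts a touch by any single liver histone peak: this held for 65.7%, 73.9% and 74.7% of the first 1000 peaks, and for 19.8%, 33.8% and 46.8% of the whole lists.

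HNF4A summits lay most often at some distance from H3K27ac and H3K4me1 summits in NMR35 and DMR4. The distance was measured to the nearest H3K27ac summit of the same liver for the top 5000 HNF4A peaks. In DMR4, 4.46% lay within 100 bases, 13.6% at 100 to 200 bases, 25.3% at 200 to 300 bases and 16.3% at 300 to 400 bases. In NMR35 these shares were 7.86%, 9.28%, 12.5% and 10.5%, again highest at 200 to 300 bases. NMR30 had no such maximum, with 5.38%, 4.40%, 4.40% and 3.24%. H3K4me1 summits were farther off, and the most frequent distance was 300 to 400 bases in both DMR4 (18.4%) and NMR35 (8.74%). H3K4me3 differed between these animals. In NMR35 it was most frequent within 100 bases, at 5.90%, and fell from there, and in DMR4 it was most frequent at 200 to 300 bases, at 7.54%. The median distance to an H3K27ac summit at ranks 1001 to 5000 was 322 bases in DMR4, 566 in NMR35 and 16591 in NMR30.

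**Figure D3:**
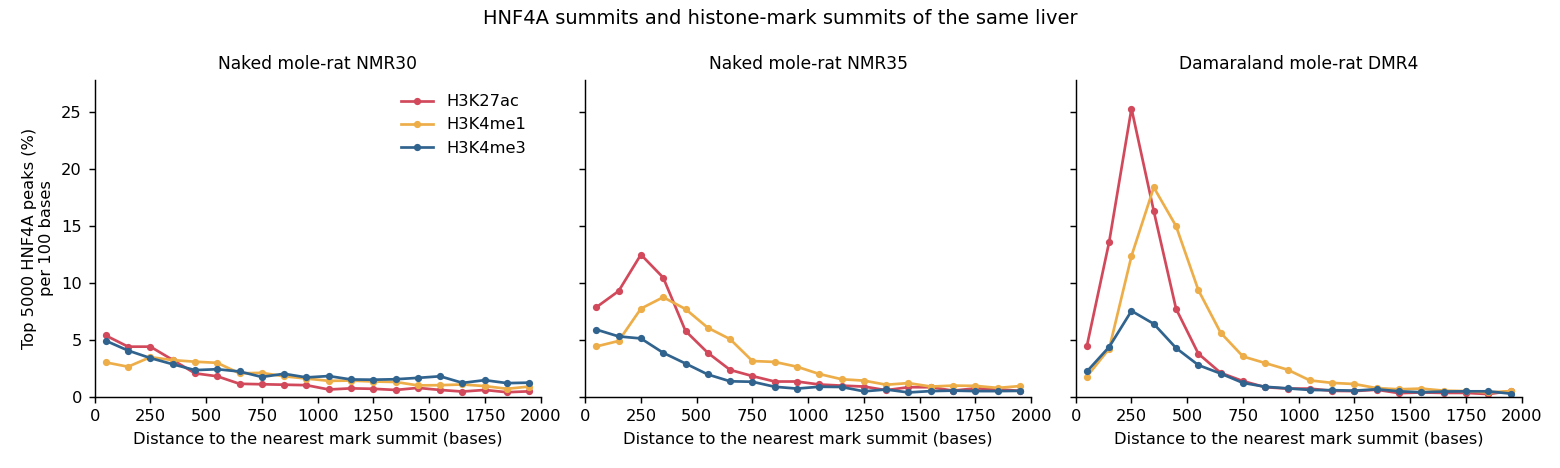
The share of the top 5000 HNF4A peaks (y axis, % per 100 bases) is plotted against the distance in bases from the HNF4A summit to the nearest summit of each mark in the same liver (x axis), for NMR30, NMR35 and DMR4. H3K27ac peaks at 200 to 300 bases in DMR4 (25.3%) and NMR35 (12.5%), H3K4me1 of these 2 animals at 300 to 400 bases, and H3K27ac of NMR30 is highest within 100 bases (5.38%).

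Seen from the marked regions, HNF4A covered promoters more often than enhancers. In the naked mole-rat, 5.21% of 27135 promoters overlapped an NMR30 peak and 17.1% an NMR35 peak. Of 68306 active enhancers 1.49% and 6.34% did, and of 102687 primed enhancers 0.872% and 2.73%. The order was the same in DMR4, at 30.8% of 20096 promoters, 14.1% of 67405 active enhancers and 3.92% of 97988 primed enhancers. Promoters marked in liver and in no heart consensus were bound more often than those marked in both: 6.70% against 4.89% in NMR30, 19.4% against 16.6% in NMR35 and 46.2% against 29.4% in DMR4. Active enhancers had the opposite order in NMR35, at 5.96% of the liver-only against 7.35% of the others, and in DMR4, at 13.2% against 15.7%. In NMR30 the shares were 1.45% and 1.61% with overlapping 95% intervals (1.34 to 1.55 and 1.44 to 1.80), and with the top 5000 peaks alone they were 0.514% and 0.498%. Width moved with binding throughout. Of the widest 10% of H3K27ac regions 10.5%, 34.3% and 59.2% were bound in NMR30, NMR35 and DMR4, against 1.33%, 5.11% and 10.2% of the rest. The part of width in these shares was not tested.

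The overlap with the other 3 factors was measured within each animal. RXRA shared most with HNF4A in NMR35, at 18.3% of HNF4A peaks, and in DMR4, at 30.6%. In NMR30 FOXA1 led with 10.7%, followed by CEBPA with 9.11% and RXRA with 7.04%, and the RXRA list of NMR30 was the shortest of the animal with 26218 peaks. Among the first 1000 HNF4A peaks, 94.5%, 97.5% and 98.6% were in the RXRA list of NMR30, NMR35 and DMR4. At ranks 1001 to 5000 the RXRA share was 31.2%, 82.7% and 91.9%. Most HNF4A peaks had no partner: 82.8% of NMR30, 74.4% of NMR35 and 64.8% of DMR4 peaks overlapped none of the 3 other factors of the animal.

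Acetylation was more frequent where other factors were present. Such peaks were also stronger. In NMR30 the median fold was 4.20 with 0 other factors and 9.92 with all 3, and the median width 285 and 548 bases. The part of peak strength in the shares below was not tested. HNF4A peaks with no other factor were in liver H3K27ac at 2.20% in NMR30, 6.18% in NMR35 and 9.57% in DMR4. Heart H3K27ac held 2.15%, 4.88% and 9.11% of these peaks, near the liver share in NMR30 and DMR4 and below it in NMR35. With 1 other factor the liver shares were 15.4%, 37.5% and 63.7%, and with 2 they were 31.5%, 46.1% and 71.8%. With all 3 factors they were 35.8%, 40.8% and 58.5%, below the level with 2 factors in NMR35 and DMR4. In DMR4 the scaffolds under 1 Mb held 21.3% of the peaks with all 3 factors and 9.09% of those with 2. By partner, RXRA alone went with 31.3%, 47.4% and 74.0% in liver H3K27ac, CEBPA alone with 13.2%, 26.4% and 45.1%, and FOXA1 alone with 13.5%, 24.6% and 11.9%. RXRA was thus the partner with the highest share in each animal. The whole RXRA lists also had the highest liver H3K27ac shares of the 3 partner factors, at 28.7%, 31.3% and 57.7%. Peaks shared with RXRA alone also had the highest H3K4me3 shares, at 17.9%, 29.5% and 29.6%. Among the whole lists of the 3 partner factors RXRA led there too, at 13.0%, 16.6% and 16.2%. How far the order of partners repeats that of their whole lists was not tested.

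**Figure D4:**
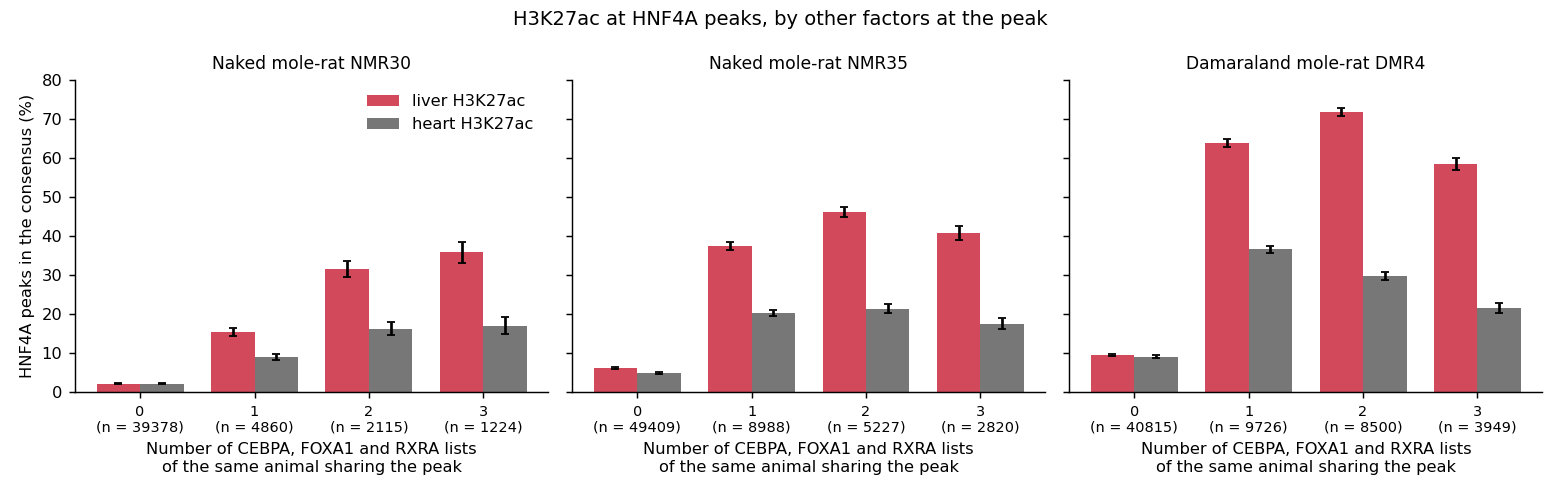
The bars give the share of HNF4A peaks in liver (red) and heart (grey) H3K27ac consensus regions (y axis, %) by how many of the CEBPA, FOXA1 and RXRA lists of the same animal share the peak (x axis, with the number of peaks), with 95% Wilson intervals. Without another factor both bars are nearly level in NMR30 and in DMR4, at 9.57% and 9.11% in DMR4, and the liver bar is higher in NMR35. With 2 factors the liver bar of DMR4 reaches 71.8%.

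Regions bound by HNF4A in no other factor list still included marked sites. The 5 leading ones of each species were taken among regions in liver H3K27ac on scaffolds reaching 1 Mb that overlapped no peak of another factor by 50% of the shorter, a choice made after the values were seen. Of the 5 in both naked mole-rats, 3 had heart H3K27ac peaks and 2 had no heart peak of any mark. The leading one was JH171000.1:1606352-1606659, with a fold of 7.54 in NMR30 (rank 2463) and 15.5 in NMR35 (rank 2111). It had a peak in all 5 liver H3K27ac lists, in no list of H3K4me3 or H3K4me1 and in no heart list. JH169118.1:2508359-2508785, at ranks 1502 and 2842, had a peak in all 5 liver H3K27ac and H3K4me1 lists and in all 3 heart H3K27ac lists. JH166608.1:1066318-1066806, at ranks 4196 and 2311, had peaks in all 5 liver H3K27ac and H3K4me3 lists and in no heart list, and a CEBPA peak of NMR30 at rank 75829 touched it over less than that overlap. Of the 5 DMR4 regions, 3 had heart H3K27ac peaks and 2 had no heart peak. The leading one, KN123483.1:759839-761291, had a fold of 36.3 at rank 701, with H3K27ac and H3K4me3 peaks in all 5 hearts and all liver lists. RXRA peaks of DMR4 (rank 2265, fold 33.7) and DMR1 (rank 2986, fold 9.73) touched it over less than that overlap. So did a CEBPA peak of DMR4 at rank 74689. KN123669.1:2817188-2817787 had a fold of 30.9 at rank 831, with H3K27ac and H3K4me1 peaks in all 5 livers and no heart peak. HNF4A peaks without another factor by this overlap thus included both regions acetylated in liver alone and regions acetylated in both tissues.

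Among the 5 leading regions with all 3 other factors, chosen in the same way, 1 of the 5 naked mole-rat regions and 4 of the 5 DMR4 regions had heart H3K27ac peaks. The leading naked mole-rat region was JH171743.1:1839086-1840010, rank 14 in both animals with a fold of 459 and 581. It had a peak in 4 of 5 liver H3K27ac lists and no heart H3K27ac peak. FOXA1 had ranks 13 and 14 there, RXRA 14 and 13, and CEBPA 1367 and 2699. In DMR4 the leading region was KN122569.1:7640086-7640549, with a fold of 272 at rank 45, H3K27ac peaks in all 5 livers and in 4 of 5 hearts. Ranks in the DMR4 lists were 11 for RXRA, 15 for FOXA1 and 156 for CEBPA. KN122033.1:306814-308481, at rank 51, was the one DMR4 region of the 5 without a heart H3K27ac peak. RXRA had rank 47 there, while FOXA1 had rank 12282 and CEBPA rank 29835. At the leading region of each species CEBPA thus stood farthest down its lists among the 3 other factors.

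Finally, HNF4A was compared with the other liver factors over all 16 libraries. The statistic was the mean over both species of HNF4A minus the other factors, with factor labels exchanged within a species (two-sided exact permutation test, 224 choices, smallest possible p 0.00446). The single DMR4 HNF4A library thus weighs as much as both naked mole-rat ones together, and the exchange ignores which animal a library came from. Damaraland HNF4A came from DMR4 alone and the other Damaraland lists from DMR4 and DMR1, so factor and animal are partly confounded there. Of 10 results compared, none had an adjusted p below 0.05 after Benjamini-Hochberg adjustment. The lowest p was that of the log2 ratio of liver over heart H3K27ac shares for all peaks, which was 0.39 lower for HNF4A (exact permutation p = 0.0268, adjusted p = 0.268). HNF4A was below the mean of the other 3 factors of the same animal in 3 of 3 animals, by 0.38, 0.31 and 0.34. For the share of all peaks in liver H3K27ac, HNF4A was lower by 6.41 percentage points (exact permutation p = 0.339, adjusted p = 0.679), and lower than the mean of the animal's other factors in 3 of 3 animals. Within animals the difference was -13.9 points in NMR30, -9.58 in NMR35 and -11.7 in DMR4. The permutation statistic was -11.8 points without the DMR4 HNF4A library and -4.09 without that of NMR30. Exchange of labels within an animal, the replicate block, leaves out the DMR1 libraries, and without them the statistic was -11.7 points. In the naked mole-rat the HNF4A mean was 10.4% ± 6.58 (SD, n = 2) against 22.1% ± 6.92 (SD, n = 6) for the others, and in the Damaraland mole-rat 29.4% against 30.5% ± 14.2 (SD, n = 7). NMR30 HNF4A had the lowest share of the 16 libraries, and DMR4 HNF4A lay inside the range of 11.3% to 57.7% of the other Damaraland libraries.

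Among the first 1000 peaks, HNF4A had 8.62 percentage points more peaks in liver H3K4me3 than the other factors (exact permutation p = 0.067, adjusted p = 0.335). Without the DMR4 HNF4A library, which leaves the naked mole-rat alone, the difference was 2.35 points. Against the other factors of the same animal it was 1.03 points in NMR30, 3.67 in NMR35 and 10.8 in DMR4. DMR4 HNF4A had 22.0% there, above all 7 other Damaraland libraries, which ranged from 2.40% to 17.9%. NMR30 and NMR35 had 24.3% and 25.8%, inside the range of 12.4% to 29.5% of the other naked mole-rat libraries. For the first 1000 peaks in liver H3K27ac the difference was -1.59 percentage points (exact permutation p = 0.938, adjusted p = 0.960). It was -20.2 points in the naked mole-rat and 17.0 points in the Damaraland mole-rat, so the species differed in sign there. The difference between species was not tested. Against the other factors of DMR4 itself, without DMR1, it was 2.93 points. HNF4A (64%) was above FOXA1 (35%) there and below CEBPA (75.2%) and RXRA (73%). Peak number, median width, both H3K4me1 shares, the share of all peaks in H3K4me3 and the ratio of the first 1000 peaks had adjusted p-values from 0.679 to 0.960.

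**Figure D5:**
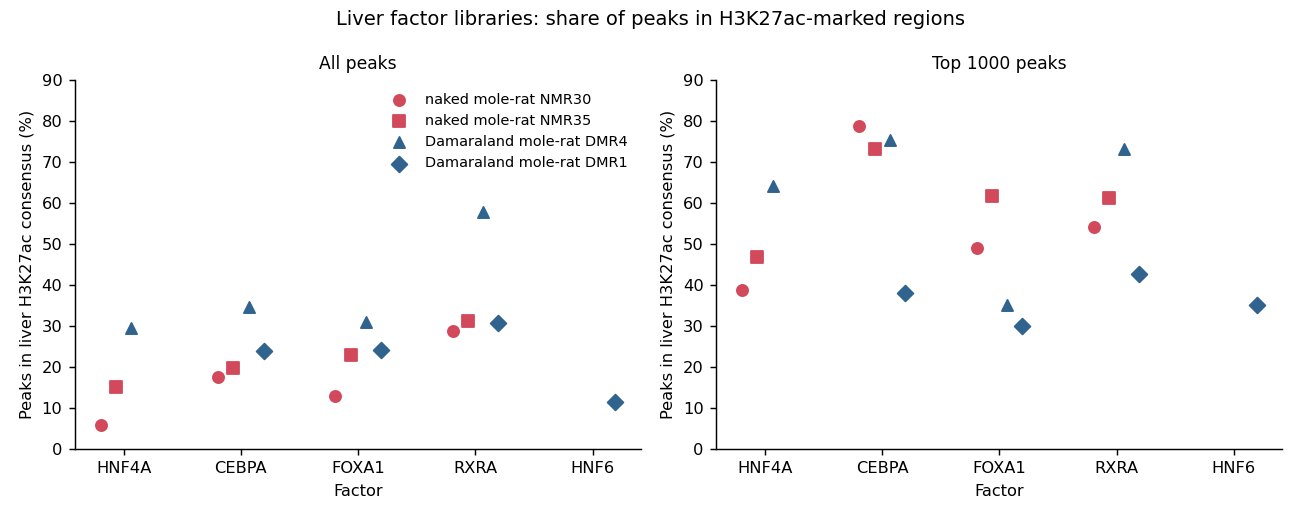
The share of peaks in liver H3K27ac consensus regions (y axis, %) is plotted for each of the 16 liver factor libraries by factor (x axis), for all peaks on the left and the first 1000 peaks on the right, with 1 point per library. HNF4A of NMR30 is the lowest library for all peaks at 5.72%, and HNF4A of DMR4 stands at 29.4% and 64%.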

How the data were processed

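The 3 HNF4A lists, 13 other liver factor lists and 52 histone lists of both mole-rats were used as deposited. Peaks were called with MACS2 for each library separately, per the submitters' processing notes and the one list per library; no aligner and no version is named in these sources. Per the deposited lists, column 7 is a fold ratio over background, and columns 8 and 9 are −log10 p and −log10 q, with no −log10 q below 1.302 in the 16 factor lists. The histone files name the builds HetGla_1.0 and DMR_v1.0, and the factor lists use the same scaffold names. Read depth is unknown, and the labels do not say how many reads support a peak.

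From these lists, consensus regions (stretches covered in at least 2 animals), overlaps (at least 50% of the shorter) and ranks (by −log10 p) were computed with Python 3.11.15, pandas 2.3.3 and scipy 1.17.1. Overlaps were checked against bedtools 2.31.1 and the permutation test was tested on simulated data. Shares have 95% Wilson intervals, which cover counting error only. HNF4A was compared with the other factors by exact permutation of factor labels within species, with Benjamini-Hochberg adjustment over 10 results. Libraries of 1 animal are paired by that animal, and exchange within an animal was an alternative. It leaves out DMR1, which had no HNF4A list. Replicates are separate animals.

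Named regions were the 10 leading regions of both naked mole-rat lists, the 10 leading DMR4 peaks, the leading peak without histone peaks and the leading peak with all 4 factors. The lists compared and the rules were chosen with earlier results of these data known. Sequences, motifs and genes were not analysed here.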

Additional observations from a re-analysis of the deposited data

Results flagged for a closer look

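The liver H3K4me3 list of NMR30 stood apart from those of the other 4 naked mole-rats: it held 6.45% of the NMR30 HNF4A peaks, and the others held 2.64% to 3.10%. The gap was 0.880 of the range of the 5 values. That list had 253457 peaks with a median width of 285 bases, which is also the minimum width of the NMR30 HNF4A list. Chance flags about 1 in 20 groups, and 16 groups were examined. Without this animal's histone lists in the consensus, the naked mole-rat mean share in H3K4me3 was 5.07% for all peaks and 24.65% for the first 1000, against 5.18% and 25.05% with them. The differences between HNF4A and the other factors were then -0.126 and 8.80 percentage points, against -0.189 and 8.62.

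For 2 results every naked mole-rat library moved one way and the Damaraland library the other, against the mean of the other 3 factors of the same animal; neither difference was tested. For the first 1000 peaks in liver H3K27ac, HNF4A differed by -21.9 percentage points in NMR30, -18.5 in NMR35 and 2.93 in DMR4. In DMR4 HNF4A (64%) was still below CEBPA (75.2%) and RXRA (73%), and only FOXA1 was lower, at 35%. For all peaks in liver H3K4me3 HNF4A differed by -4.80, -2.10 and 0.0621 percentage points. There HNF4A was above CEBPA and FOXA1 and below RXRA in both NMR35 and DMR4.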

How the results depend on the processing

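Over the 10 comparisons of HNF4A with the other factors, 183 of 196 alternative values kept direction and call. Exchange within an animal (the replicate block, which leaves out DMR1) changed no call, with the log2 liver over heart ratio for all peaks at -0.34 (exact permutation, adjusted p = 0.365). With summits inside the consensus, the H3K4me3 difference of the first 1000 peaks was 8.08 points and passed (exact permutation, adjusted p = 0.0446, against 0.201 to 0.938 with a library or histone animal left out), and the differences for H3K27ac and H3K4me1 turned to 8.53 and 3.77. The H3K27ac difference of the first 1000 peaks also turned on scaffolds reaching 1 Mb (0.35) and when ranked by fold (1.05). The difference in H3K4me3 for all peaks turned at −log10 q of at least 4 (1.07), with 3 animals per consensus (0.0165) and with the same animal's list (0.676). The log2 peak number turned in the naked mole-rat alone (-0.0055) and at −log10 q of at least 4 (-0.0102). The cause was not tested.

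Leaving out 1 library or histone animal gave ranges of -0.0055 to 0.40 for log2 peak number, with the lowest without DMR4, -3.45 to 0.88 for all peaks in H3K4me3 and -20.2 to 0.44 for the first 1000 in H3K27ac, with the highest of both without NMR30 HNF4A. Without DMR4 the first 1000 peaks gave 2.35 in H3K4me3, -17.2 in H3K4me1 and -0.06 for the log2 liver over heart ratio. For DMR4 H3K27ac shares it gave 27.3% to 29.4% (all) and 62.8% to 64% (first 1000), and for the naked mole-rat means 5.72% to 15.0% (all; 5.72% without NMR35) and 38.7% to 46.8%.

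DMR4 H3K27ac shares for all and the first 1000 peaks were 34.9% and 72.7% with 1 base of overlap, and 27.03% and 53.4% by summit. For all peaks they were 26.1% with 3 animals and 27.4% with the same animal's list. For the top they were 79.1% ranked by fold, 56.6% for 500 peaks and 70.5% for 5000. The naked mole-rat mean of the first 1000 was 35.9% by summit, and 34.0% for 5000 peaks. Alternatives added after seeing the data gave, in DMR4, 30.1% and 83.8% on scaffolds reaching 1 Mb, 27.4% and 84.2% without peaks in all 3 other factor lists, and 9.23% and 41.1% without peaks in any list of another factor, where the naked mole-rat means were 3.53% and 16.8%.

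The overlap of NMR30 peaks with NMR35, and the reverse, was 14.0% and 9.75% by 1 base, 8.39% and 6.01% by summits within 100 bases, and 27.5% and 14.4% at −log10 q of at least 4 (Jaccard 0.133). It was 12.2% and 11.8% with equal numbers (0.0845), and 11.8% and 8.19% on scaffolds reaching 1 Mb (0.067). Also added later, it was 9.40% and 6.71% without peaks in all 3 other factors (0.0472), and 1.99% and 1.62% without peaks in any other factor's list (0.00826). No heart ratio could be given with the same animal's list, since NMR30 has no heart H3K27ac list here, and Damaraland H3K4me3 could not lose an animal. Depth, which is unknown, limits how a missing peak can be read.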

Other observations

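In no list of any other factor of the species lay 78.6% of NMR30, 69.2% of NMR35 and 62.6% of DMR4 HNF4A peaks. In NMR30 these 37395 peaks were in liver H3K27ac at 1.52% and in heart H3K27ac at 1.83%, and 2.34% of them were in the NMR35 HNF4A list. In NMR35, 5.54% were in liver and 4.66% in heart H3K27ac, and 1.76% were in the NMR30 list. In DMR4 the shares were 9.23% and 9.05%. These peaks had the list's minimum width in 68.2%, 73.6% and 59.8% of cases.

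In NMR35 the 12318 peaks that were absent from the NMR30 HNF4A list but shared with another factor of NMR35 lay in liver H3K27ac at 42.5%, above the 32.0% of its peaks shared with NMR30. In NMR30 the 3676 peaks of the same kind had 8.92%.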
